A study of Mus musculus with 9 samples.

Results

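Brain endothelial cells from WT mice were described here at baseline, across all measured transcripts and without comparison to another genotype. The libraries were chosen by the headers of the deposited count matrix that stand for WT replicates 1, 2 and 3, which are 3 of the 9 samples of the series. Each WT library was made from 20000 cells sorted from the brain of a C57BL/6 mouse that was 6 months old and labelled male, with a surface positive for CD31 and negative for CD45. The remaining 6 samples carry the APP/PS1 transgenes, alone or with an altered Ripk1, and were not used. The WT mice have no transgene, agent or treatment in the labels. Each label speaks of 1 mouse, and how the replicates relate otherwise (litter, day of sorting) is not given, so the spread below is that between these 3 libraries.

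Endothelial cells line every blood vessel. In the brain they form the blood-brain barrier: tight junctions built of claudins close the gaps between cells, so glucose, amino acids, fatty acids and hormones must pass through carriers in the cell membrane, and efflux pumps return many drugs to the blood. The identity of these cells is set by ETS, SOX and forkhead transcription factors together with Wnt signals from the surrounding brain, and it changes gradually from artery through capillary to vein.

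The deposited values were expected counts for 23420 gene symbols, summing to between 38175941 and 49015376 per library. The ribosomal RNA precursor Rn45s took 33.8%, 33.4% and 29.6% of them in replicates 1, 2 and 3, an order used for all library values below. It was set aside, which left 23419 genes and between 25285461 and 34483316 counts per library. A level in CPM is the share of that remainder scaled to a sum of 1000000 (counts per 1000000 counts) and is used for 1 gene across libraries. A level in TPM also divides by the length of the longest GENCODE transcript of the gene and is used to compare genes. Errors are SD over 3 libraries. A count of 0 allowed a level of up to 0.119, 0.107 and 0.0870 CPM, taking 3 counts as the floor, which covers counting error only because PCR copies were not marked.

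The sex-linked transcripts of 2 libraries went against their label. Xist, the RNA that coats the inactive X chromosome of female cells, stood at 354, 526 and 0.0870 CPM. The sum of the Y-linked Ddx3y, Eif2s3y, Uty and Kdm5d stood at 0, 0.0357 and 250.3 CPM. Replicates 1 and 2 therefore carried Xist and almost no Y-linked RNA, and replicate 3 the reverse. Replicate 3 also stood apart in interferon-induced and venous genes, replicate 2 in arterial, venous and capillary genes and replicate 1 in clock genes, described at the end. Values are printed per library so that each can be read with and without them.

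All 4 markers of brain endothelium were abundant in every library. Cldn5, the claudin that seals the tight junctions of brain endothelium, stood at 17102, 13019 and 15048 TPM, and Itm2a, a membrane protein enriched in brain endothelium, at 5985, 7861 and 7331 TPM. Pecam1, the gene of the sorting antigen CD31, had 1118, 983 and 1068 TPM, and Cdh5, the cadherin of endothelial adherens junctions, at 449.5, 470.4 and 431 TPM. By mean TPM they ranked 3, 8, 102 and 356 among 23025 genes with a length, where the median level was 1.03 TPM. The libraries of each marker differed by no more than 1.31-fold, the ratio for Cldn5. Cldn5 lies on chromosome 16 from 18776847 to 18778262 on the plus strand and Itm2a on chromosome X from 107397099 to 107403376 on the minus strand. Pecam1 lies on chromosome 11 from 106654217 to 106750628 on the minus strand and Cdh5 on chromosome 8 from 104101625 to 104144511 on the plus strand, all as GENCODE gives protein-coding genes on GRCm38.

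Transcription was concentrated in few genes. The genes that together held 50% of the counts numbered 709, 713 and 736 (719 ± 14.6). The 10 most abundant genes of a library held 7.18% ± 0.0794 of its counts, the top 100 held 23.5% ± 0.0590 and the top 1000 held 56.0% ± 0.338. At the other end, 10942 genes (46.7%) reached 1 CPM in all 3 libraries and 7074 had no count in any. Protein-coding genes held 98.2% ± 0.160 of the counts and long non-coding genes 1.12% ± 0.117. The curves of cumulative share lay almost on top of each other, so the 3 libraries were equally concentrated although their leading genes were not all the same: 7 of the top 10 genes by counts, 20 of the top 25 and 82 of the top 100 were shared by all 3.

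**Figure D1:**
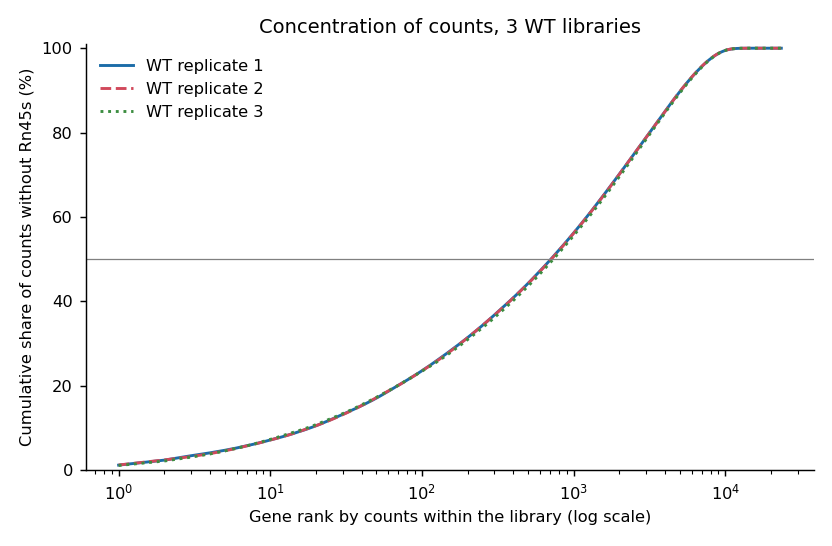
Cumulative share of counts without Rn45s (%) against gene rank on a log scale, 1 curve for each of the 3 WT libraries, with a grey line at 50%. The curves cross that line between rank 709 and rank 736.

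By counts the 10 leading genes were Bsg, Slc2a1, Cldn5, Malat1, Pltp, Ly6c1, Itm2a, B2m, Lars2 and Sepp1. Per length the order changed. Bsg, the immunoglobulin-like chaperone of monocarboxylate carriers also called basigin, led with 17951, 18528 and 16463 TPM. Ly6c1, a lipid-anchored surface protein of brain endothelium, followed with 16541, 16440.2 and 17435 TPM and Cldn5 with a mean of 15056 ± 2042 TPM. The ranges of Ly6c1 and Bsg overlapped, and so did those of Ly6c1 and Cldn5, and neither pair kept 1 order in every library. Bsg lay above Cldn5 within each library, although their ranges overlapped. B2m, the light chain of MHC class I, had the widest range of the leading genes, 8269.9, 9794 and 19853 TPM, with replicate 3 far above the others. In replicates 1 and 2 its range met that of Ly6a, the second of the abundant LY6 proteins, at 8618, 9008 and 11248 TPM.

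Among the 25 protein-coding genes of highest TPM were carriers and lipid proteins, surface proteins, cytoskeletal genes and genes of general cell upkeep. Slc2a1, the GLUT1 glucose carrier, stood at 8453, 8542 and 7421 TPM and Pltp, which transfers phospholipids between lipoproteins, at 7178, 7188 and 5158 TPM. Tmsb4x, which binds actin monomers, was the steadiest of the leading 10 at 7979.9, 8235 and 7982 TPM. The selenium transport protein Sepp1 stood at 4929 ± 502 TPM, the ubiquitin gene Ubb at 5326 ± 222 TPM and the iron store Ftl1 at 3254 ± 178 TPM. The inhibitors of basic helix-loop-helix factors Id3 and Id1, targets of BMP signalling, stood at 3256 ± 255 and 3003 ± 425 TPM. The globins of red cells Hba-a1 and Beta-s were in this group, Hba-a1 at 4814, 6450.3 and 5866 TPM and Beta-s, the adult beta chain, at 4755, 6221 and 5331 TPM, lowest in replicate 1 and highest in replicate 2 for both. Near-identical copies share reads with several of these genes (Hba-a1 with Hba-a2, Ly6c1 with Ly6c2, H2-D1 with other class I genes), and 28.0% of the deposited WT values were not whole numbers, so their split between copies is uncertain. The set was similar between libraries, 21 of the top 25 genes by TPM being shared by all 3.

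**Figure D2:**
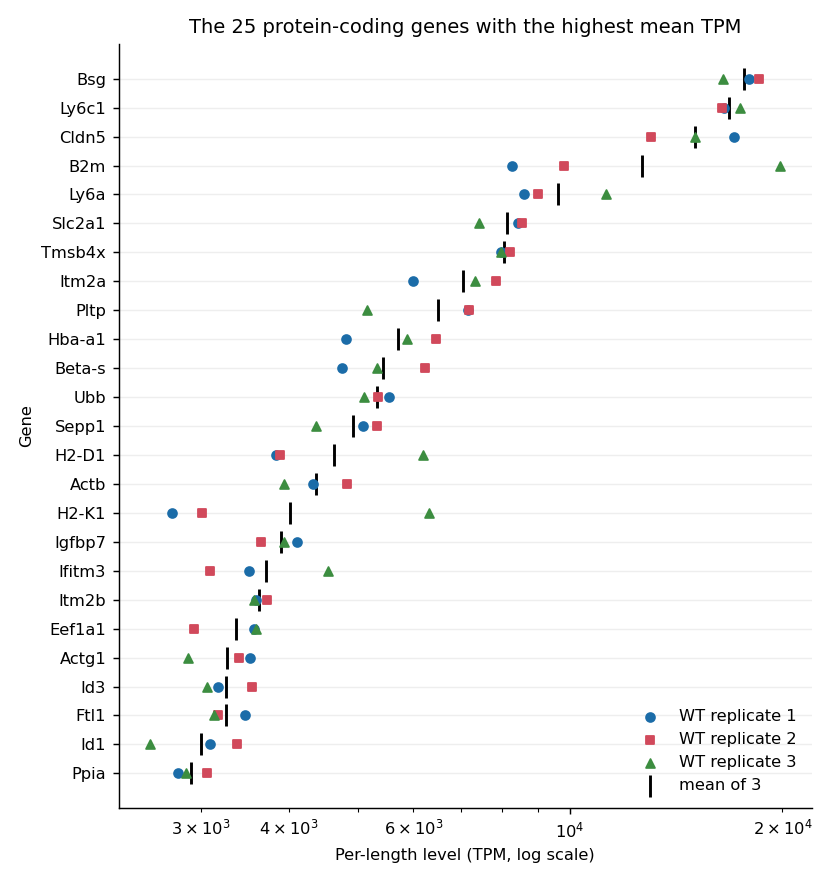
Per-length level (TPM, log scale) of the 25 protein-coding genes of highest mean, with 1 symbol per WT library and a black bar at the mean. Replicate 3 is the highest library for B2m, H2-D1 and H2-K1 and the lowest for Slc2a1 and Pltp.

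TPM depends on which transcript gives the length. With the median transcript length of each gene in place of the longest, 13 of 27 levels examined moved by more than 1.5-fold, among them Slc2a1 to 23959 TPM and Cldn5 to 9049 TPM. With merged exons only Ly6c1 did, to 9314 TPM. Of the 52 family ratios, 20 moved that far with the median length and 2 with merged exons.

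The promoters of the leading genes are shown because they differ in what stands just before the start. RefSeq promoters on GRCm38.p6, 250 bases before to 50 after the start, were found for 15979 of 20371 protein-coding genes (78.4%). Shown 5′ to 3′ are the 100 bases before the start, with these motifs in capitals: GGGCGG, the GC box, and CCAAT, both on either strand, and the TATA box TATAAA on the forward strand 40 to 20 bases before the start. Any other stretch is in lower case. First are Cldn5, Slc2a1, Itm2a and Pltp. Then come H2-D1 and Ppia, the only 2 of the 21 promoters found for the 25 highest genes that held TATAAA.
Cldn5, chr16:18776747-18776846, plus strand: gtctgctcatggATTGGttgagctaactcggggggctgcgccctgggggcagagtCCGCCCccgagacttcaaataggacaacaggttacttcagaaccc
Slc2a1, chr4:119108645-119108744, plus strand: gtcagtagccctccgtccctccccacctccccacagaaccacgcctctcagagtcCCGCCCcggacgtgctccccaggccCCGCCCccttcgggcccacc
Itm2a, chrX:107403361-107403460, minus strand: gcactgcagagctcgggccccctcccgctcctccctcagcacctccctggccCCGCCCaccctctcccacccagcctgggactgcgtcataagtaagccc
Pltp, chr2:164857709-164857808, minus strand: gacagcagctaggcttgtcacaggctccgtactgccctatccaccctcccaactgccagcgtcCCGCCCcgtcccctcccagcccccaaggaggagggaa
H2-D1, chr17:35262994-35263093, plus strand: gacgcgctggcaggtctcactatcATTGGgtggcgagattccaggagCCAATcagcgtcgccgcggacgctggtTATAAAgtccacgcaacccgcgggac
Ppia, chr11:6415767-6415866, plus strand: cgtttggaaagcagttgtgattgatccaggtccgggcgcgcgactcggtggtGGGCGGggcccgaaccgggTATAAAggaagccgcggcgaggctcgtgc

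In the stretches shown, Cldn5 held a GC box and a CCAAT box, Slc2a1 repeated GC boxes, and Itm2a and Pltp 1 GC box each. The TATA box of H2-D1, an MHC class I heavy chain, stood beside CCAAT boxes, and that of Ppia, the folding enzyme cyclophilin A, beside a GC box. Over the whole 300 bases, 13 of the 21 promoters held GGGCGG and 12 held CCAAT. Of all protein-coding promoters with an entry, 48.9% held GGGCGG and 38.9% CCAAT in the same length. TATAAA stood in its window in 2.65% of them. These shares describe the promoters with an entry, which fall short of 80% of genes, and are not compared with the 21.

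Across abundance classes a promoter entry was found for 80.4% of the protein-coding genes of TPM ranks 101 to 1000 and 80.8% of ranks 1001 to 5000, but for only 73% of the top 100 and 77.9% of genes with no count. Below 80% coverage a comparison of classes is void, so shares are given for the middle classes alone. GGGCGG was present in 64.5% and 67.2% of their promoters, CCAAT in 39.4% and 39.8%, and the ETS core CCGGAAG, searched on both strands, in 20.9% and 23.2%. The classes were thus near each other in all 3 motifs. Over all promoters with an entry, 12.5% held CCGGAAG. The median coding length was 681 bases in the top 100 by TPM and 1192 in ranks 1001 to 5000. TPM divides by length, so by rank on counts the same medians were 1143 and 1366 bases, so most of that contrast went with the division by length. These are descriptions across genes, which are not independent replicates, and a match of letters is not a bound site.

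Carriers were dominated by Slc2a1. Of 376 solute carrier genes, 188 reached 1 CPM in all libraries, near the 46.7% of all genes that did, and together they held 3.20% of counts. Slc2a1 alone made up 35.5% ± 1.66 of their summed TPM and 99.3% of the 12 GLUT genes. The next GLUT gene, Slc2a8, stood at 34.2, 40.3 and 22.4 TPM. Slco1a4 and Slco1c1, which carry organic anions and thyroid hormone, stood at 1154, 1649 and 1489 and at 1233, 1338 and 1170.5 TPM and overlapped. Slc7a5, the light chain of the large neutral amino acid carrier LAT1, stood at 358, 602 and 309 TPM, highest in replicate 2, and its heavy chain Slc3a2 at 774, 1082 and 912 TPM.

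Other carrier families had more than 1 abundant member. Slc16a1, which moves lactate and other monocarboxylates, stood at 220.2, 326 and 181 TPM, highest in replicate 2, and overlapped its relative Slc16a4 at 155, 219 and 191 TPM. The glutamine carriers Slc38a5 and Slc38a3 also overlapped, at 354, 342 and 702 and 303, 466 and 288 TPM, and replicate 3 had the highest Slc38a5. Slc9a3r2, a scaffold of membrane carriers, stood at 2318, 2332 and 2298 TPM and was among the 3 least variable genes of at least 50 CPM. Mfsd2a, which carries lysophospholipids into the brain, stood at 311, 681 and 374 TPM, with replicate 2 above the others.

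The efflux pumps Abcb1a (P-glycoprotein), Abcg2 and Abcc4 led the 50 ABC transporters. Abcb1a stood at 517, 534 and 512 TPM, Abcg2 at 385, 477 and 369 TPM and Abcc4 at 380.3, 335 and 337 TPM, so Abcb1a lay above the other two in every library while Abcg2 and Abcc4 overlapped. The ratio of Abcb1a to Abcg2, 1.28 ± 0.143 with the longest transcripts, turned to 0.135 with the median transcript length, so their order depends on the transcript taken. Abcb1b, the second P-glycoprotein gene, had 2.92 ± 2.54 CPM against 1125 ± 19.7 CPM for Abcb1a. Low members of the barrier list also included Lrp1, a receptor of lipoproteins and amyloid peptides, at 2.49, 0 and 7.95 CPM, and Ager, the receptor RAGE, at 0.514, 2.68 and 3.13 CPM. In all, 36 of the 40 listed barrier transporters reached 1 CPM in every library, against 46.7% of all genes. The median level of the 40 was 215 TPM, against 1.03 TPM over all genes with a length and 25.3 TPM over those at 1 CPM in every library.

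Junction genes were led by 1 claudin. Cldn5 made up 99.8% of the summed TPM of 25 claudins, and the next, Cldn12, stood at 15.9, 11.9 and 12.2 TPM, 1134 ± 83.1 times lower. Cldn3 had counts in replicate 1 only (0.593, 0 and 0 CPM), and Cldn1 did not pass the floor of 3 counts in any library. The endothelial adhesion molecule Esam stood at 2703, 2807 and 2468 TPM, the tricellular junction receptor Lsr at 1096, 947 and 1106 TPM and the adhesion molecule Icam2 at 1066, 971 and 960.1 TPM. Cdh5 made up 78.6% ± 6.91 of the cadherins and Cdh13 most of the rest at 132, 62.2 and 139 TPM, lowest in replicate 2. Of 26 junction genes, 21 reached 1 CPM in all libraries, against 46.7% of all genes. The list held 2.01% ± 0.140 of counts with a median of 70.3 TPM.

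Receptors of vascular growth factors were present throughout. Flt1, the VEGF receptor that also acts as a decoy, stood at 1036, 989 and 949 TPM and the signalling receptor Kdr at 217, 263 and 159.7 TPM, 4.82 ± 1.09 times lower, or 2.98 times with merged exon lengths. The angiopoietin receptor Tek and its partner Tie1 were level, at 512, 431 and 409 and 494, 485 and 364 TPM. Notch1 lay above Notch4 in every library, 196, 158 and 123 against 107, 92.2 and 70.4 TPM. The ranges of the ligands Jag2 and Dll4 overlapped at 157 ± 35.1 and 112 ± 35.8 TPM, although Jag2 was higher within each library. Eng, the endothelial co-receptor of BMP9, stood at 1907, 1502 and 1444 TPM and its signalling receptor Acvrl1 at 719.6, 665 and 645 TPM, with a ratio of 2.38 ± 0.232 that was 1.29 with the median transcript length. Flt1 over Kdr, Notch1 over Notch4 and Eng over Acvrl1 held in each library, whereas the size of these ratios rests on the transcript lengths.

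In the other receptor families named here the share of the leading member varied, from 39.8% for Eltd1 among adhesion receptors to 93.7% for Itgb1. S1pr1, the sphingosine phosphate receptor that stabilises junctions, made up 93.4% of its family at 1501, 1433 and 1074 TPM, and S1pr2, S1pr3 and S1pr5 fell below 1 CPM in at least 1 library. Ramp2, the partner of the adrenomedullin receptor, made up 93.5% at 1934, 2510.0 and 1777 TPM, and Itgb1 93.7% of integrin beta chains at 378, 315 and 367 TPM. Among receptors of Wnt ligands, Fzd6 stood at 129.5, 116 and 138 TPM and Fzd4, the receptor of norrin, at 47.4, 66.6 and 30.3 TPM. The adhesion receptors were led by Eltd1 at 935, 926 and 890.1 TPM and Gpr116 at 619, 537 and 528 TPM, while their relative Gpr124, which brain endothelium needs for Wnt7 signals, stood at 41.1, 34.0 and 26.3 TPM. Il10rb, a chain shared by several interleukin receptors, led the interleukin receptors at 396, 494 and 505 TPM.

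Transcription factors of endothelial identity held 2.03% ± 0.113 of counts, with a median of 87.7 TPM. Of the 55, 53 reached 1 CPM in all libraries, against 46.7% of all genes. After Id3 and Id1, whose ranges overlapped although Id3 was higher within each library, came Sox18, a SOX factor of vessels, at 2217, 1588 and 1617 TPM. Sox17, an arterial SOX factor, stood at 773, 719.6 and 757 TPM. The ratio of Sox18 to Sox17, 2.40 ± 0.403, was 1.11 with the median transcript length. Epas1, the HIF-2 alpha subunit, stood at 1296, 983 and 1294 TPM and made up 93.4% of its family, against 61.5, 66.9 and 117 TPM for Hif1a. Among ETS factors Ets1, Fli1 and Elk3 were near each other at 149.9 ± 26.2, 135 ± 20.9 and 119 ± 8.06 TPM.

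The forkhead and Wnt factors that mark brain vessels were measured in every library. Foxf2 and Foxq1, both tied to the barrier, stood at 171, 151 and 159 and 145, 136 and 98.0 TPM. Lef1, the effector of Wnt signalling in brain endothelium, stood at 281, 322 and 303 TPM and made up 79.1% ± 2.17 of the 4 TCF and LEF genes. Klf2, which responds to blood flow, stood at 746, 518 and 372 TPM, highest in replicate 1 and lowest in replicate 3. Gata2 made up 99.9% of the GATA factors at 409, 361 and 371 TPM. None of the 39 Hox genes reached 1 CPM in all 3 libraries, against 46.7% of all genes. Of the 39, 23 had no count at all, against 7074 of all 23419 genes. Meox2 had 0.0395, 0 and 0 CPM, under the floor of 3 counts in each library.

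The matrix and secreted proteins of the vessel wall held 1.48% ± 0.119 of counts. Igfbp7, a secreted protein bound to vessel basement membranes, stood at 4100.4, 3645 and 3928 TPM, Egfl7 at 1941, 1902 and 1856 TPM and Sparcl1 at 1449.5, 2099.8 and 1435 TPM. Collagen IV chains Col4a1 and Col4a2 stood at 289, 255 and 175 and 202, 194 and 122 TPM. Col4a1 was above Col4a2 within each library, 1.39 ± 0.0695 times, a ratio that was 7.87 with the median transcript length. Lamb2 led the laminins at 408, 279 and 271 TPM, and Lama5 and Lama4, the laminin alpha chains of brain vessels, stood at 62.4 ± 3.59 and 25.4 ± 4.54 TPM. Ltbp4, which holds latent TGF-beta in the matrix and ranked 14 by counts, stood at 5512, 3649 and 2154 CPM and so differed 2.56-fold between libraries. Of the vasoactive genes, Plat, the tissue plasminogen activator, stood at 1298, 883 and 835 TPM, Nos3, the endothelial nitric oxide synthase, at 584, 438 and 459 TPM, and thrombomodulin, Thbd, at 514, 491 and 415 TPM. The clotting initiator F3 had no count in any library.

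Surface genes shared by endothelia were abundant, and several surface families had more than 1 abundant member. The 35 pan-endothelial surface genes held 5.53% ± 0.0950 of counts with a median of 676 TPM. Of them, 34 reached 1 CPM in every library, against 46.7% of all genes. The tetraspanin Cd81, a membrane organiser, stood at 2164, 1927 and 1963 TPM and Tspan13 at 1371, 1623 and 1378 TPM, while Cd9, lowest in replicate 2, stood at 843, 521 and 1005 TPM. Cav1, the coat protein of caveolae, and its partner Ptrf overlapped at 918, 869 and 1124 and 963, 741 and 852 TPM, a ratio that the median transcript length moved to 5.10. Ly6c1 lay above Ly6a in every library, 1.76 ± 0.192 times, or 1.12 times with merged exons. The gap junction genes had no stable leader. Gja4, the connexin of arteries, stood at 129, 32.5 and 129 TPM and Gja1 at 70.0, 105 and 35.2 TPM, so Gja4 was higher in replicates 1 and 3 and Gja1 in replicate 2.

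Aquaporins and carbonic anhydrases were each carried mostly by 1 gene, while Lrp10 made up 44.6% ± 5.36 of the lipoprotein receptors. Aqp11, an intracellular water channel, made up 88.1% ± 6.36 of the aquaporins at 127, 129.7 and 92.8 TPM, and Aqp1, the water channel of peripheral endothelium and choroid plexus, stood at 26.0, 17.2 and 4.58 TPM. Car4 made up 77.9% of the carbonic anhydrases. Among lipoprotein receptors Lrp10 led at 120.1, 99.0 and 77.3 TPM and Lrp8, a receptor of reelin, stood at 36.4, 41.8 and 29.4 TPM. The transferrin receptor Tfrc, by which iron enters the brain, stood at 87.2, 144 and 168 TPM, lowest in replicate 1, and the iron exporter Slc40a1 at 207, 273 and 203 TPM.

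Cell upkeep genes had a small spread. Cytoskeletal genes held 2.99% ± 0.0865 of counts, chaperones 1.25% ± 0.0587 and glycolytic enzymes 0.411% ± 0.0125, with the libraries of each list within 1.09-fold. Actb lay above Actg1 in each library, 4321, 4827 and 3937 against 3522, 3401 and 2876 TPM. The elongation factor Eef1a1 stood at 3569, 2936 and 3591 TPM, while Eef1a2, its paralog of neurons and muscle, did not pass the floor in any library. Of 85 cytosolic ribosomal protein genes 82 reached 1 CPM in all libraries, against 46.7% of all genes. The 85 held 2.15% ± 0.0984 of counts. No member of that family exceeded the 4.55% of Rpl13. For energy, 87 of 94 nuclear genes of the respiratory chain reached 1 CPM in all libraries, against 46.7% of all genes. The 94 held 1.05% of counts. Aldoa and Ldha led the glycolytic enzymes at 929.8, 977 and 1056 and 692, 768 and 861 TPM. The matrix had no row for mitochondrially encoded genes.

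**Figure D3:**
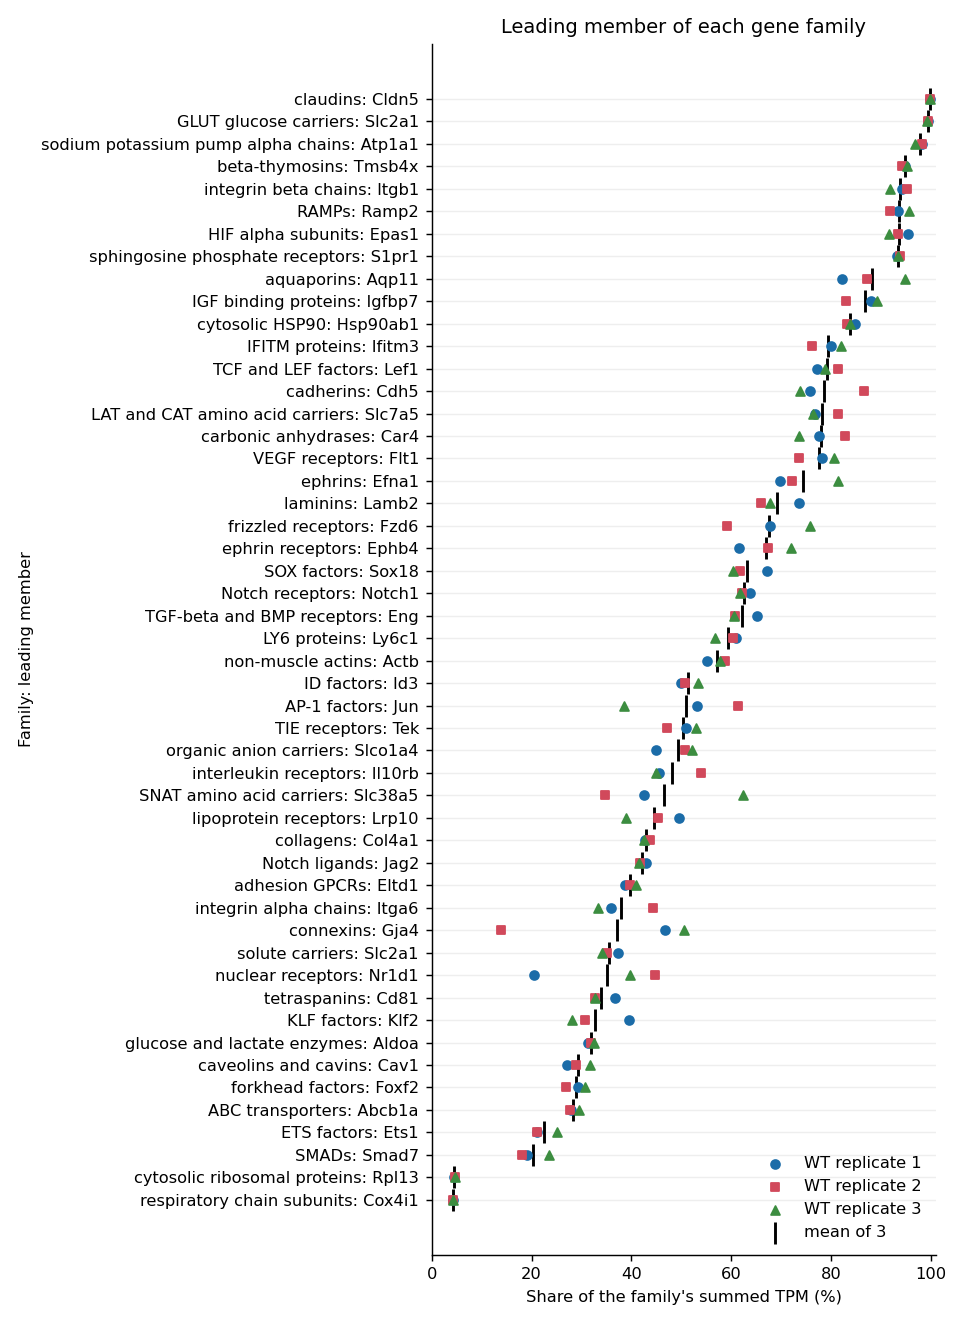
Share of a family's summed TPM (%) taken by its leading member, 1 symbol per WT library and a black bar at the mean, for 50 of the families of at least 100 summed CPM. Cldn5 and Slc2a1 take nearly all of their families, ribosomal and respiratory chain families have no leader above 5%, and connexins and SNAT carriers have the most scattered libraries.

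Genes of the arterial, capillary and venous zones spread over the libraries more widely than the shared endothelial genes. The 35 pan-endothelial surface genes summed to 55283, 56300 and 54401 CPM, a range of 1.03-fold. Cxcl12, a chemokine, is on both the arterial and the capillary list. The 23 arterial genes summed to 11716, 8899.7 and 10667 CPM, lowest in replicate 2. The 15 capillary genes summed to 10214, 15060 and 9646 CPM, highest in replicate 2, and the 18 venous genes to 2520.0, 1518 and 4606 CPM, highest in replicate 3. In bulk libraries fewer cells of a zone and less RNA per cell cannot be told apart.

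Several single zone genes showed the same libraries. For arteries Gkn3 stood at 2572, 660.3 and 2122 TPM and Mgp, an inhibitor of calcification, at 3126, 777 and 2881 TPM. For capillaries Rgcc, a regulator of the cell cycle, stood at 1733, 3976 and 1175 TPM, Car4, a carbonic anhydrase on the cell surface, at 1291, 2019 and 892 TPM, and Pglyrp1, a peptidoglycan receptor, at 1729.8, 2591 and 1450.4 TPM. Replicate 2 was lowest in both of these arterial genes and highest in all 3 capillary genes. Not every arterial gene was lowest there: Cxcl12, on both lists, stood at 834, 1329 and 876 TPM, highest in replicate 2. For veins Lrg1, a secreted glycoprotein, stood at 100.2, 22.1 and 791 TPM, Vcam1, the leukocyte adhesion molecule, at 132, 27.2 and 395 TPM and von Willebrand factor, Vwf, at 202, 73.5 and 229.9 TPM. All 3 were highest in replicate 3 and lowest in replicate 2, though Vwf differed little between replicates 1 and 3. Without replicate 3 the venous list fell from a mean of 2881 CPM to the range of the first 2 values above.

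MHC class I and interferon genes held 3.02% ± 0.795 of counts, and replicate 3 lay above the others with 25048, 26162 and 39341 CPM. The list also holds Ly6c1 and Ly6a. Besides B2m, the class I heavy chains H2-D1 and H2-K1 stood at 3827, 3885 and 6198 and 2727, 3006 and 6314 TPM, and Ifitm3, an antiviral membrane protein, at 3511, 3085 and 4540.3 TPM. The MHC class II list summed to 22.8, 29.4 and 902 CPM, 39.6-fold apart, and its invariant chain Cd74 to 8.19, 8.85 and 482 CPM. The mean of that list thus rests on replicate 3, and it was 0.00261% of counts without it against 0.0318% with it. The leukocyte list summed to 34.2, 30.2 and 37.8 CPM, most of it from Lcp1. Of its 14 genes in the matrix, 1 reached 1 CPM in all libraries, against 46.7% of all genes. The part of leukocytes in the MHC levels was not tested. Replicate 3 was also the library with Y-linked RNA, and the part of sex in these levels was not tested.

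Other brain cells were scarce in these libraries. Mural cell genes summed to 81.9, 19.7 and 58.0 CPM, led by the smooth muscle actin Acta2 at 25.2, 1.53 and 15.9 CPM and vitronectin, Vtn, at 12.9, 4.39 and 10.1 CPM. Replicate 2, lowest in the arterial sum, was also lowest in the mural sum, and the part of mural cells in that difference was not tested. Fibroblast genes summed to at most 1.68 CPM. Of 12 astrocyte genes 3 had no count (Ntsr2, Aldh1l1 and Gjb6), against 7074 of all 23419 genes, so that count does not set the list apart. The connexin Gja1, which endothelium also expresses, made most of the astrocyte sum at 95.9, 144 and 48.9 CPM. Microglial genes summed to 91.0, 149 and 75.9 CPM, a mean of 105 CPM. Of the 14 listed, 1 gene not reported here averaged at least 50 CPM, so the sum rests largely on it. The complement genes C1qb, at 6.13, 14.1 and 2.15 CPM, and C1qa, at 4.15, 10.1 and 1.65 CPM, were both highest in replicate 2. The macrophage receptor Mrc1 was at 0. Leukocyte genes were led by Lcp1 at 30.0, 25.6 and 32.7 CPM, with Cd3e, Itgax and Nkg7 at 0.

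A few cell type lists were carried by 1 gene. Mal, a raft protein of myelin, stood at 966, 743 and 842 CPM and made nearly all of the oligodendrocyte sum, while Mog, Opalin and Olig1 had no count. Stmn2, a microtubule regulator of neurons that was also on the arterial list, stood at 306, 141 and 237 CPM and made most of the neuronal sum, while Tubb3, Nefm and Slc17a7 had no count. Flt4 made nearly all of the lymphatic sum, while Prox1 and Pdpn did not pass the floor. Of the choroid plexus list, Enpp2 and Ttr stood at 232, 225 and 192 and 89.2, 51.9 and 78.8 CPM. Red cell genes summed to 3031, 4031 and 3598 CPM, almost all of them globins, and Slc4a1 had no count. Genes of fenestrated or peripheral endothelium were led by Emcn at 798, 1143 and 787 CPM and Plvap, the protein of fenestrae, at 544, 796 and 365 CPM, while Clec4g, Gata4 and Oit3 had no count. Proliferation genes such as Mki67 and Top2a stood at 0.0791, 0.321 and 0.116 and 0, 0 and 0.957 CPM.

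**Figure D4:**
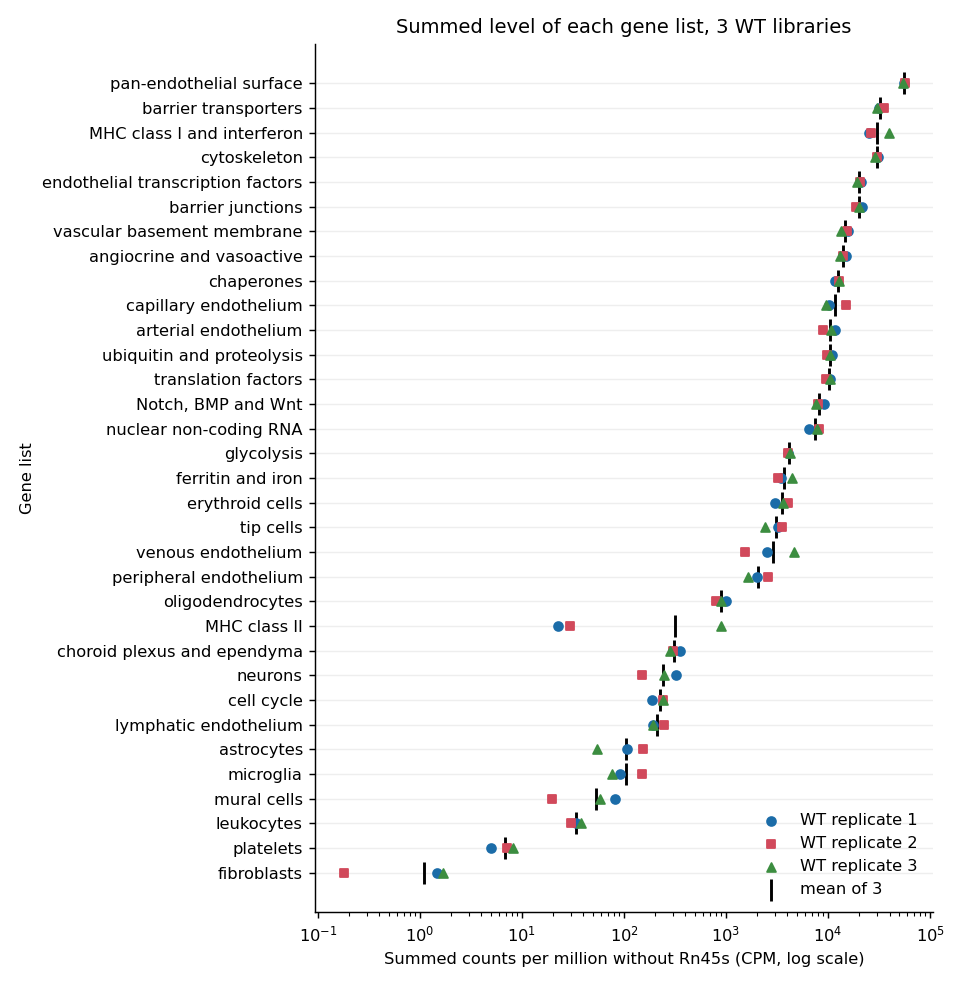
Summed level (CPM without Rn45s, log scale) of each of 33 gene lists, 1 symbol per WT library and a black bar at the mean. Pan-endothelial genes sum to at least 54401 CPM and fibroblast genes to at most 1.68, and MHC class II and venous genes are highest in replicate 3.

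Long non-coding and disease-related transcripts of the series completed the profile. Malat1, a nuclear RNA, stood at 5428, 6656 and 7108 CPM and ranked 4 by counts, and Neat1, the scaffold of paraspeckles, at 414, 459 and 353 CPM. App, the gene of the amyloid precursor protein, stood at 829.5, 721 and 845 TPM and ranked 22 by counts and 170 by TPM. Ripk1, the kinase altered in another genotype of the series, stood at 21.7, 23.4 and 16.8 TPM and ranked 6047.

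The spread between libraries narrowed with abundance. The median coefficient of variation was 44.4% for the 2755 genes of 1 to 10 CPM, 17.2% for the 6903 genes of 10 to 100 CPM, 10.8% for the 2040 genes of 100 to 1000 CPM and 10.6% for the 99 genes above. Above 100 CPM it hardly differed between the abundance classes. Across the 10942 genes at 1 CPM, Spearman correlations between libraries were 0.960, 0.964 and 0.951 for replicates 1 and 2, 1 and 3, and 2 and 3, where genes are not independent replicates. The 10 least variable genes of at least 50 CPM included Slc9a3r2, the ribosomal protein gene Rpl19 at 446, 448 and 443 CPM, the chromatin remodeller subunit Smarce1 at 127, 127 and 127 CPM and Nfe2l2, the regulator of the antioxidant response, at 153, 155 and 153 CPM. With 3 libraries so small a spread for a few of 4243 genes says little about a gene.

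Most of the most variable genes of at least 50 CPM were highest in the same library. Of the 10 with the largest coefficient of variation, 9 were highest in replicate 3, which were Cd74, Darc, H2-Ab1, Lcn2, Lrg1, Ptgs2, Tgtp1, Gbp4 and Vcam1. Darc, the chemokine receptor of veins also called Ackr1, stood at 3.60, 3.14 and 166 CPM, Ptgs2, the inducible cyclooxygenase, at 26.1, 9.13 and 172 CPM, and Gbp4, an interferon-induced GTPase, at 168, 166 and 927 CPM. The remaining one, Gm129, a repressor of the clock also called Ciart, was highest in replicate 2 at 6.05, 112 and 33.5 CPM. Of the 4243 genes, 40 (0.943%) in replicate 3 were more than 2-fold above both other libraries, against 2 (0.0471%) in replicate 1 and 9 (0.212%) in replicate 2. Of the 40 genes, 8 were on the MHC class I and interferon list, which has 30 genes at this level, and 6 on the venous list, which has 12, while 23 were on no list, among them the interferon-induced Gbp2, Gbp3, Igtp, Irgm1, Iigp1 and Tgtp2, chosen after their values were seen. Reads of Tgtp1 and Tgtp2, and of the many class I genes, may be split between near-identical copies.

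Replicates 1 and 2 stood apart in other genes. In replicate 2, 38 genes (0.896%) were more than 2-fold below both others, of which 7 were on the arterial list, 7 of its 20 genes at 50 CPM: Gkn3, Mgp, Fbln5, Gja4, Bmx, Clu and Vegfc. Another 3 were among the 12 venous genes at that level (Lrg1, Vcam1 and Vwf), and 26 were on no list. The 22 angiocrine genes at that level held 3 of the 38, Ptgs2 and, shared with those lists, Vegfc and Vwf. Elastin, Eln, stood there at 75.8, 25.3 and 76.1 CPM and the smooth muscle kinase Mylk at 134, 32.0 and 103 CPM. In replicate 1, 8 genes (0.189%) were that far below both others, against 12 (0.283%) in replicate 3, and 6 of the 8 belong to the circadian clock, named after their values were seen: Dbp, Gm129, Nr1d1, Nr1d2, Per3 and Tef. The clock output factor Dbp stood at 19.5, 298 and 177 CPM, and the clock activator Arntl, of opposite phase, at 99.1, 14.1 and 42.6 CPM, highest in replicate 1. No label gives the time of day of collection.

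**Figure D5:**
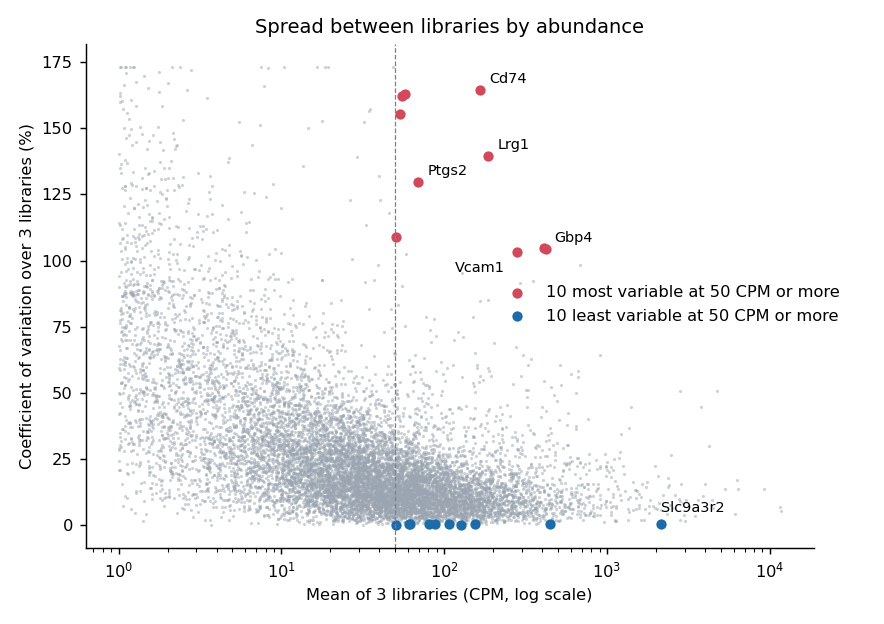
Coefficient of variation over the 3 WT libraries (%) against mean level (CPM, log scale) for 11797 genes of at least 1 CPM on average. Red points are the 10 most and blue points the 10 least variable genes of at least 50 CPM, the limit drawn as a dashed line.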

How the data were processed

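RNA of sorted brain endothelial cells was amplified by Smart-seq2 from an oligo(dT) primer, per the labels' protocols, a method that marks neither strand nor single molecules, so overlapping and antisense genes cannot be told apart. Per the submitters' processing notes, the authors used Bowtie 0.12.2, RSEM and edgeR 3.10.2 with the builds mm10 and GRCm38, and no gene annotation is named in those notes. The deposited values are expected counts per gene symbol, rounded here to whole numbers. The 3 WT columns were used, the 6 other columns were not, and no test was made because 1 group is described.

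Counts without Rn45s were scaled to CPM. TPM used the longest GENCODE M21 transcript (protein-coding where any). Of 23420 symbols, 21777 matched GENCODE directly, 1248 under an older symbol and 395 had no match (0.330% of counts without Rn45s). Library totals give a floor of 3 counts, or 0.0870 to 0.119 CPM, for counting error only. Python 3.11.15, pandas 2.3.3, numpy 2.4.6, matplotlib 3.10.9, R 4.3.3 and edgeR 4.0.16 (TMM and filterByExpr alternatives) were used, and the scripts were tested on simulated data.

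Members and lists were chosen with earlier results of these data known. Named are the 25 protein-coding genes of highest TPM, the 10 of highest counts, the 3 leading members of each family and list, the 2 leading members and absent markers of each cell type, and the 10 most and 10 least variable genes of at least 50 CPM. Other names were chosen after their values were seen, and a few genes under this rule are not reported here. Alternatives were unrounded counts, TMM scaling, keeping Rn45s, other gene lengths, filtered or protein-coding genes, and leaving out libraries.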

Additional observations from a re-analysis of the deposited data

How the results depend on the processing

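No gene level or list share (27 and 33 examined) moved by over 1.5-fold or by over 1 SD with unrounded counts or TMM-scaled CPM, nor did any of 52 family ratios with unrounded counts; ratios were not run with TMM. Of 348 values that left out 1 library, 3 moved by over 1.5-fold: MHC class II fell to 0.00261% of counts without replicate 3, from 0.0318%, and the others are those of Gja4 over Gja1. Leaving out 1 library gave 11120 to 11224 genes at 1 CPM or more against 10942 with all 3, 711 to 724.5 genes for 50% of counts and 23.4754% to 23.5331% for the 100 most abundant genes. With Rn45s kept, 133 genes held 50% of counts and the top 100 held 48.1%. That top-100 share was 23.44% in replicate 3 alone and 23.4% over protein-coding genes. Gja4 over Gja1 was 0.35 on the log2 scale, 1.38 without replicate 2, -0.41 without replicate 3 and -2.84 with the median transcript length. On the log2 scale, the median transcript length reversed Abcb1a over Abcg2 (-2.89) and Id3 over Id1 (-0.024), and the longest length less 200 bases reversed Rpl13 over Rps27 (-0.048) and Cox4i1 over Cox6a1 (-0.070); the cause is the length alone, by construction. TPM could not be recomputed with Rn45s kept, since it has no GENCODE length. Levels taken from replicate 3 alone, the library whose sex-linked RNA matches its label, moved by over 1.5-fold for B2m (19853 TPM), H2-K1 (6314 TPM), 4 list shares (venous genes 0.461%, MHC class II 0.0902%, astrocytes 0.00550%, fibroblasts 0.000168%) and 6 family ratios, on the log2 scale Slc38a5 over Slc38a3 (1.28), Efna1 over Efnb1 (2.88), Fzd6 over Fzd4 (2.19), Jun over Junb (0.056), Gja4 over Gja1 (1.88) and Aqp11 over Aqp1 (4.34). No paired analysis was possible because only 1 group is described. Depth limits statements on genes under 1 CPM, and 3 libraries limit every SD.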

Other observations

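Several genes were low in replicate 3, and those named here were picked after their values were seen. Jun, a subunit of the AP-1 factor, stood at 501, 464 and 208 CPM. The phosphatases Dusp1 and Dusp6, which switch off MAP kinases, stood at 441, 334 and 114 and at 198, 238 and 60.3 CPM, and Rhob, a small GTPase of endosomes, at 798, 783 and 368 CPM. All 4 were more than 2-fold lower in replicate 3 than in both other libraries. Junb, another AP-1 subunit, was lowest in replicate 2 at 147, 91.1 and 113 CPM, and Fos, at 46.5, 44.3 and 38.5 CPM, differed by less than 2-fold between libraries.

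Angptl4, an inhibitor of lipoprotein lipase, stood at 105, 109 and 50.0 CPM and was also more than 2-fold lower in replicate 3. The checkpoint ligand Cd274 (PD-L1) stood at 21.8, 25.7 and 127 CPM, Nlrc5, the activator of class I genes, at 40.9, 43.8 and 148 CPM and the peptide transporter Tap1 at 96.7, 95.5 and 270.2 CPM, all highest in replicate 3. Apod, a lipocalin, stood at 171, 195 and 425 CPM and was also highest in replicate 3.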
